A study of Mus musculus with 2 samples.

Results

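The intermediate monocytes described here are mouse spleen cells that carried RNA of both monocyte subsets at once. They were chosen by RNA alone. A cell had to hold at least 1 UMI of Csf1r, the receptor for colony-stimulating factor 1, at least 3 UMIs summed over the classical genes Ly6c2, Ccr2, F13a1 and Fn1, and at least 2 UMIs summed over the nonclassical genes Ace, Adgre4, Cd300e and Treml4. A UMI is a molecular tag that counts 1 captured RNA molecule. Cells at or above 1% of UMIs from S100a8 and S100a9, cells with any UMI of the B cell genes Cd79a and Cd79b or the NK cell gene Ncr1, cells with 3 or more UMIs of the dendritic genes Cd209a and Clec10a and cells with 5 or more of the complement genes C1qa, C1qb and C1qc were left out. The rule found 760 members among 13258 cells, 312 in the high-B12 library and 448 in the low-B12 library.

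The material was spleen sorted for CD45.2 and CD11b from thawed cell suspensions, with 1 library labelled High B12 and 1 labelled Low B12, each made with a 10x Genomics 3′ kit. CD45.2 is one of the allele products of the leukocyte surface protein CD45, and CD11b, a myeloid integrin subunit, is encoded by Itgam. The labels give no genotype, age, vitamin dose, duration or number of animals, although the series title speaks of Tet2-deficient blood formation. With 1 library per condition there was no test between conditions, and every interval at 95% covers counting error only.

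Classical monocytes carry Ly6C and the chemokine receptor CCR2, leave the bone marrow through that receptor and enter inflamed tissue. Nonclassical monocytes, which in mice depend on the nuclear receptor Nr4a1, patrol the inside of blood vessels. In mice the nonclassical cells descend from classical ones, and cells with features of both are known as intermediate monocytes, while the spleen holds a reserve of undifferentiated monocytes.

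The high-B12 library held 46994991 UMIs and the low-B12 library 48884220. Members had a median of 9333.5 UMIs and 2783 genes in the high-B12 library and 8831 UMIs and 2814.5 genes in the low-B12 library. No barcode was shared between the members of the libraries, and 4 barcodes were shared among all cells. Empty droplets held more free neutrophil RNA in the high-B12 library, where S100a8 made up 46839 CPM (UMIs per 1000000 UMIs) against 18272 CPM in the low-B12 library. The summed level of 16 neutrophil markers in members was 970 CPM in the high-B12 library and 493 CPM in the low-B12 library. Of 9 platelet markers, all 9 were at 0 in high-B12 members and 8 in low-B12 members, and 8 of 9 basophil, mast cell and eosinophil markers were at 0 in both. T cell markers summed to 7.21 CPM in high-B12 members and 1.65 CPM in low-B12 members, with 6 of 10 markers at 0 in each. Other lists were not near 0. Macrophage markers summed to 358 CPM in high-B12 and 362 CPM in low-B12 members, with 0 and 1 of 13 at 0, and plasmacytoid dendritic cell markers, which include Bst2, to 297 and 228 CPM with Siglech and Klk1 at 0 in both. B cell markers summed to 169 CPM in high-B12 and 192 CPM in low-B12 members, with 6 and 2 of 12 at 0, NK cell markers to 59.7 and 127 CPM, with 2 and 1 of 12 at 0, and conventional dendritic cell markers to 126 and 130 CPM, with 2 and 0 of 13 at 0. Their part in the results was not tested.

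The comparison classes were cut with the same cell limits. Classical cells had at least 3 classical and under 2 nonclassical UMIs (343 in the high-B12 library and 374 in the low-B12 library). Nonclassical cells had at least 2 nonclassical and under 3 classical UMIs (180 in the high-B12 library and 441 in the low-B12 library). Since these gates cut on RNA of the same cells, every difference between the classes below is a description with no test.

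**Figure D1:**
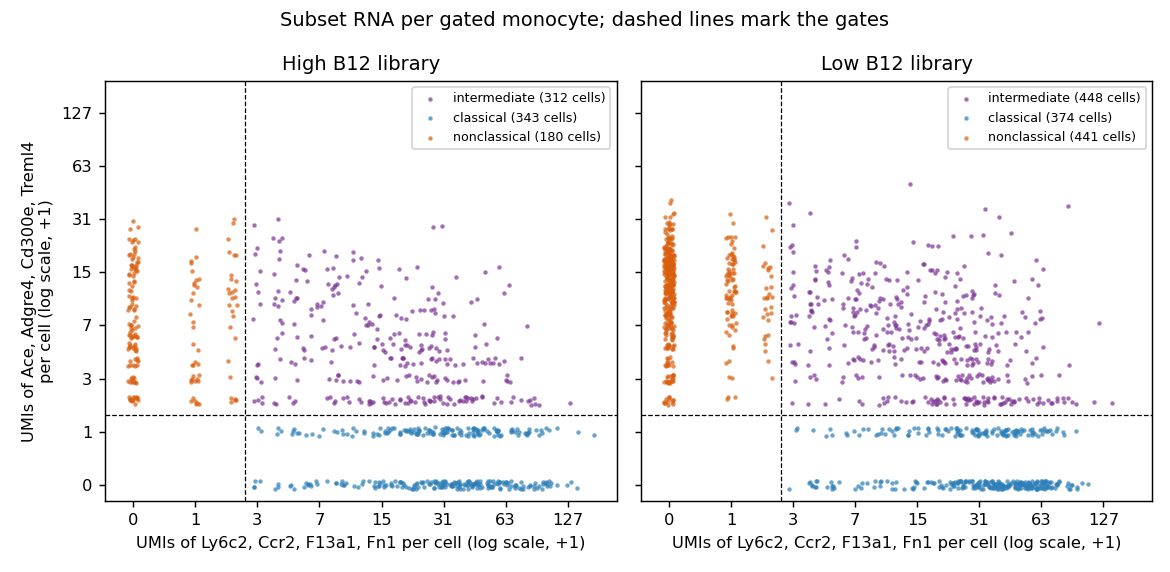
UMIs per cell of the 4 classical genes (horizontal, log scale after adding 1) and the 4 nonclassical genes (vertical, same scale) for each gated monocyte, with the high-B12 library on the left. Each point is 1 cell, shifted slightly at random so that points do not hide each other, dashed lines mark the gates, and the 312 high-B12 and 448 low-B12 intermediate cells fill the upper right field without a gap to either neighbour.

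Members formed a continuous field and not a separate cloud, as the plot of subset UMIs per cell shows. The median member carried 18 classical and 4 nonclassical UMIs in the high-B12 library, and 19 and 6 in the low-B12 library. At the nonclassical limit, 80 high-B12 and 85 low-B12 members had exactly 2 nonclassical UMIs, while 149 high-B12 and 129 low-B12 cells outside the gate had exactly 1. At the classical limit, 17 high-B12 and 21 low-B12 members had exactly 3 classical UMIs, and 28 high-B12 and 29 low-B12 cells outside had exactly 2. At least 5 UMIs of each kind were found in 129 high-B12 and 235 low-B12 members. The limit on Cd209a and Clec10a alone kept out 31 high-B12 and 39 low-B12 cells, the C1q limit 5 and 16, and the Csf1r minimum 21 and 24.

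The joint presence of both gene groups was rare in B cells and NK cells under the calprotectin limit and without any Csf1r UMI. Leaving out cells with Csf1r, a gene of monocytes, partly set these low shares in advance. They therefore do not measure how often monocyte RNA is carried into other cells. Among B cells defined by Cd79a and Cd79b, 1 of 566 cells (0.177%) reached both minimums in the high-B12 library and 0 of 1541 in the low-B12 library, at median depths of 6326 and 5850 UMIs. NK cells defined by Ncr1 reached the classical minimum in 52.2% of high-B12 and 50.8% of low-B12 cells, but the nonclassical minimum in 0.293% of high-B12 cells and 0% of low-B12 cells. Ly6c2 was detected in 47.1% of high-B12 and 51.1% of low-B12 NK cells, and Ccr2 in 51.9% and 48.4%. Scrublet, which looks for barcodes that resemble simulated pairs of cells, marked 2 high-B12 members (0.641%) and 11 low-B12 members (2.46%), against 4.51% and 6.96% of all cells of those libraries. It cannot be relied on to find a pair of 2 monocytes, and the part of such pairs was not tested. The median depth of members, 9333.5 UMIs in the high-B12 library and 8831 in the low-B12 library, stood beside 9327 and 8781.5 in classical cells and 3824.5 and 4740 in nonclassical cells.

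The genes of the rule describe the members and support nothing. Ace, which encodes angiotensin-converting enzyme, was detected in 59.0% of high-B12 and 65.0% of low-B12 members, and in 1.24% and 1.17% of B cells. Its level was 175 CPM in high-B12 and 210 CPM in low-B12 members, against 6.32 and 8.21 CPM in classical cells and 535 and 657 CPM in nonclassical cells of those libraries. Adgre4, an adhesion G protein-coupled receptor, was found in 93.3% of high-B12 and 95.8% of low-B12 members. Its level was 422 CPM in high-B12 and 458 CPM in low-B12 members, 33.8 and 25.9 CPM in classical cells and 1050 and 1156 CPM in nonclassical cells. Ace and Adgre4 thus lay between the comparison classes in both libraries.

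The remaining nonclassical genes did not enter equally. Treml4, a receptor of the TREM family, was detected in 45.8% of high-B12 and 46.9% of low-B12 members at 96.1 and 95.4 CPM, against 231 and 299 CPM in nonclassical cells. Cd300e, an activating receptor of monocytes, was detected in only 2.88% of high-B12 and 6.70% of low-B12 members, against 25.6% and 62.1% of nonclassical cells. Its level was 5.49 CPM in high-B12 and 17.5 CPM in low-B12 members, and 129 and 303 CPM in nonclassical cells. Cd300e was thus low in members, and for those without it admission rested on the other 3 genes.

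On the classical side, Ccr2 was found in 94.2% of high-B12 and 93.1% of low-B12 members at 731 and 668 CPM, against 1007 and 922 CPM in classical cells and 70.1 and 39.9 CPM in nonclassical cells. Ly6c2, which encodes the Ly6C surface antigen, was at 579 CPM in high-B12 and 429 CPM in low-B12 members, and at 1177 and 817 CPM in classical cells. F13a1, the A subunit of coagulation factor XIII, was at 470 CPM in high-B12 and 498 CPM in low-B12 members, against 942 and 1110 CPM in classical cells. Fn1, which encodes fibronectin, was at 675 CPM in high-B12 and 871 CPM in low-B12 members, against 1133 and 1477 CPM in classical cells. Csf1r was at 449 CPM in high-B12 and 505 CPM in low-B12 members, between 322 and 359 CPM in classical cells and 604 and 695 CPM in nonclassical cells. All 5 markers given for the type, Adgre4, Ace, Ccr2, F13a1 and Csf1r, were used by the rule, so they cannot check the label.

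The share of members depended on what they were counted against. They made up 4.62% of all cells in the high-B12 library (4.13 to 5.15, the exact binomial 95% interval) and 6.88% in the low-B12 library (6.28 to 7.52), a difference of -2.26 percentage points (-3.07 to -1.46). The calprotectin limit passed 3434 of 6748 high-B12 cells and 5223 of 6510 low-B12 cells. Of the cells that passed it, members were 9.09% in the high-B12 library and 8.58% in the low-B12 library, a difference of 0.508 points (-0.722 to 1.76). Among the 3 monocyte classes they were 37.4% of 835 high-B12 cells (34.1 to 40.7) and 35.5% of 1263 low-B12 cells (32.8 to 38.2), a difference of 1.89 points (-2.37 to 6.18). Of cells without calprotectin-high, B cell or NK cell RNA, they were 17.8% of 1749 high-B12 cells and 20.1% of 2232 low-B12 cells, a difference of -2.23 points (-4.70 to 0.262). The high-B12 share was thus lower against all cells, while against the other 3 denominators the difference had either sign and its interval included 0.

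Outside the genes of the rule, the RNA of members lay between that of the comparison classes. Position was scaled so that 0 is the CPM of classical cells and 1 that of nonclassical cells in the same library, over genes at 100 CPM or more that differed at least 2-fold between those classes in both libraries. Of 112 such genes higher in classical cells, 108 lay between the classes in the high-B12 library and 108 in the low-B12 library, with a median position of 0.294 in high-B12 and 0.366 in low-B12 members. Of 264 genes higher in nonclassical cells, 256 lay between in the high-B12 library and 258 in the low-B12 library, with medians of 0.192 and 0.227. Members thus sat nearer to classical cells on both sides. These genes were picked for their difference between the comparison classes, which were cut by RNA from the same cells. Lying between was therefore largely set in advance and does not check the label. A mixture of cells at different points gives the same mean position as cells that are all alike.

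Against classical cells, members had more RNA of nonclassical genes and of MHC class II genes. By the limit of at least 2-fold in the same direction in both libraries, after adding 5 CPM, 62 of 9601 genes (0.646%) were higher and 6 (0.0625%) lower. Hes1, a transcriptional repressor and target of Notch signalling, was at 230 CPM in high-B12 and 265 CPM in low-B12 members, against 63.2 and 58.4 CPM in classical cells and 533 and 459 CPM in nonclassical cells. Gngt2, a G protein gamma subunit, was at 1028 CPM in high-B12 and 919 CPM in low-B12 members, against 399 and 350 CPM in classical cells. Itgal, the alpha subunit of the integrin LFA-1, was at 320 CPM in high-B12 and 444 CPM in low-B12 members, against 138 and 172 CPM in classical cells. Grk3, a kinase of G protein-coupled receptors, was at 199 CPM in high-B12 and 236 CPM in low-B12 members, against 67.0 and 79.1 CPM in classical cells. Dusp2, a phosphatase of MAP kinases, was at 163 CPM in high-B12 and 324 CPM in low-B12 members, against 62.0 and 96.1 CPM in classical cells. Plcl1, a phospholipase C-like protein, was at 161 CPM in high-B12 and 207 CPM in low-B12 members, against 76.5 and 99.5 CPM in classical cells. These genes, together with the MHC class II genes H2-Aa, H2-Ab1, H2-Eb1 and Cd74 and the rule genes Ace and Adgre4, are the 12 leading ones.

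Among the 6 genes lower than in classical cells were Prtn3, Pclaf and Stmn1. Prtn3, a serine protease of granule precursors, was at 20.6 CPM in high-B12 and 15.8 CPM in low-B12 members, against 102 and 42.0 CPM in classical cells. Pclaf and Stmn1 are genes of dividing cells. Stmn1 was at 42.2 CPM in high-B12 and 6.37 CPM in low-B12 members, against 99.3 and 42.0 CPM in classical cells. These 3 were named after their values were seen, and Pclaf was at 22.3 CPM in high-B12 and 1.18 CPM in low-B12 members, against 60.7 and 21.3 CPM in classical cells.

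Of 46 measured nonclassical genes outside the rule, 18 were higher than in classical cells and 0 lower, beside 0.646% of all genes for the higher direction. The list's median log2 difference from classical cells was 0.74 in the high-B12 library and 1.17 in the low-B12 library, against 0.01 and 0.02 over all genes. Cx3cr1, the fractalkine receptor that marks nonclassical monocytes, missed the limit, at 425 CPM in high-B12 and 429 CPM in low-B12 members, 290 and 327 CPM in classical cells and 424 and 490 CPM in nonclassical cells. Nr4a1, the receptor needed by nonclassical monocytes, also missed it, at 283 CPM in high-B12 and 378 CPM in low-B12 members, 180 and 221 CPM in classical cells and 511 and 638 CPM in nonclassical cells. Of 47 transcription regulators, 3 were higher and 0 lower. Spi1, which encodes the myeloid regulator PU.1, was at 638 CPM in high-B12 and 619 CPM in low-B12 members and at 555 and 516 CPM in classical cells. Klf4, a factor of monocyte development, was at 613 CPM in high-B12 and 759 CPM in low-B12 members and at 585 and 647 CPM in classical cells.

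Against nonclassical cells the members differed in more genes. Of 9270 genes, 132 (1.42%) were higher in members and 243 (2.62%) lower, by the same limit. Apart from the rule genes Fn1, Ly6c2, F13a1 and Ccr2, the leading higher genes included Capg, an actin-capping protein, at 233 CPM in high-B12 and 222 CPM in low-B12 members against 17.2 and 20.2 CPM in nonclassical cells. Vim, which encodes vimentin, was at 1628 CPM in high-B12 and 1769 CPM in low-B12 members, against 344 and 353 CPM in nonclassical cells. Lyz2, the lysozyme of myeloid cells, was at 20921 CPM in high-B12 and 16552 CPM in low-B12 members, against 3334 and 4333 CPM. S100a10, a partner of annexin A2, was at 709 CPM in high-B12 and 656 CPM in low-B12 members, against 132 and 98.3 CPM. Hopx, Plcb1, Wfdc17 and Chil3 complete the group, with Hopx at 210 CPM in high-B12 and 205 CPM in low-B12 members against 41.4 and 44.7 CPM in nonclassical cells. Plcb1, a phospholipase C, was at 498 CPM in high-B12 and 579 CPM in low-B12 members, against 132 and 99.2 CPM, and Wfdc17 at 606 and 528 CPM, against 110 and 53.7 CPM. Of 34 measured classical genes outside the rule, 22 were higher than in nonclassical cells and 0 lower, with a median log2 difference of 1.27 in the high-B12 library and 1.30 in the low-B12 library, against -0.12 and -0.09 over all genes.

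Several genes with abundant RNA in nonclassical cells stood far below that level in members. Pparg, the fatty acid-sensing nuclear receptor, was at 26.1 CPM in high-B12 and 53.8 CPM in low-B12 members, against 302 and 404 CPM in nonclassical cells and 6.32 and 4.87 CPM in classical cells. Cd36, a scavenger receptor for lipids, was at 30.2 CPM in high-B12 and 61.1 CPM in low-B12 members, against 177 and 423 CPM in nonclassical cells. Fabp4, a fatty acid-binding protein, was at 17.8 CPM in high-B12 and 31.9 CPM in low-B12 members, against 183 and 252 CPM. Bcl2, which protects cells from apoptosis, was at 31.9 CPM in high-B12 and 56.2 CPM in low-B12 members, against 268 and 342 CPM. Tcf7l2, a factor of Wnt signalling, was at 59.0 CPM in high-B12 and 74.8 CPM in low-B12 members, against 313 and 392 CPM. Eno3, an enolase, was at 26.1 CPM in high-B12 and 50.3 CPM in low-B12 members, against 227 and 333 CPM. Ikzf3, Slc12a2, Setbp1, Dusp16 and Cyth3 were also lower in both libraries, as was Cd300e of the rule. Of 46 nonclassical genes outside the rule, 29 were lower than in nonclassical cells and 0 higher. Members thus held Cx3cr1 at 425 CPM in the high-B12 library and 429 CPM in the low-B12 library, close to the nonclassical level, while Pparg, Cd36, Fabp4, Eno3 and Bcl2 were several-fold below it.

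**Figure D2:**
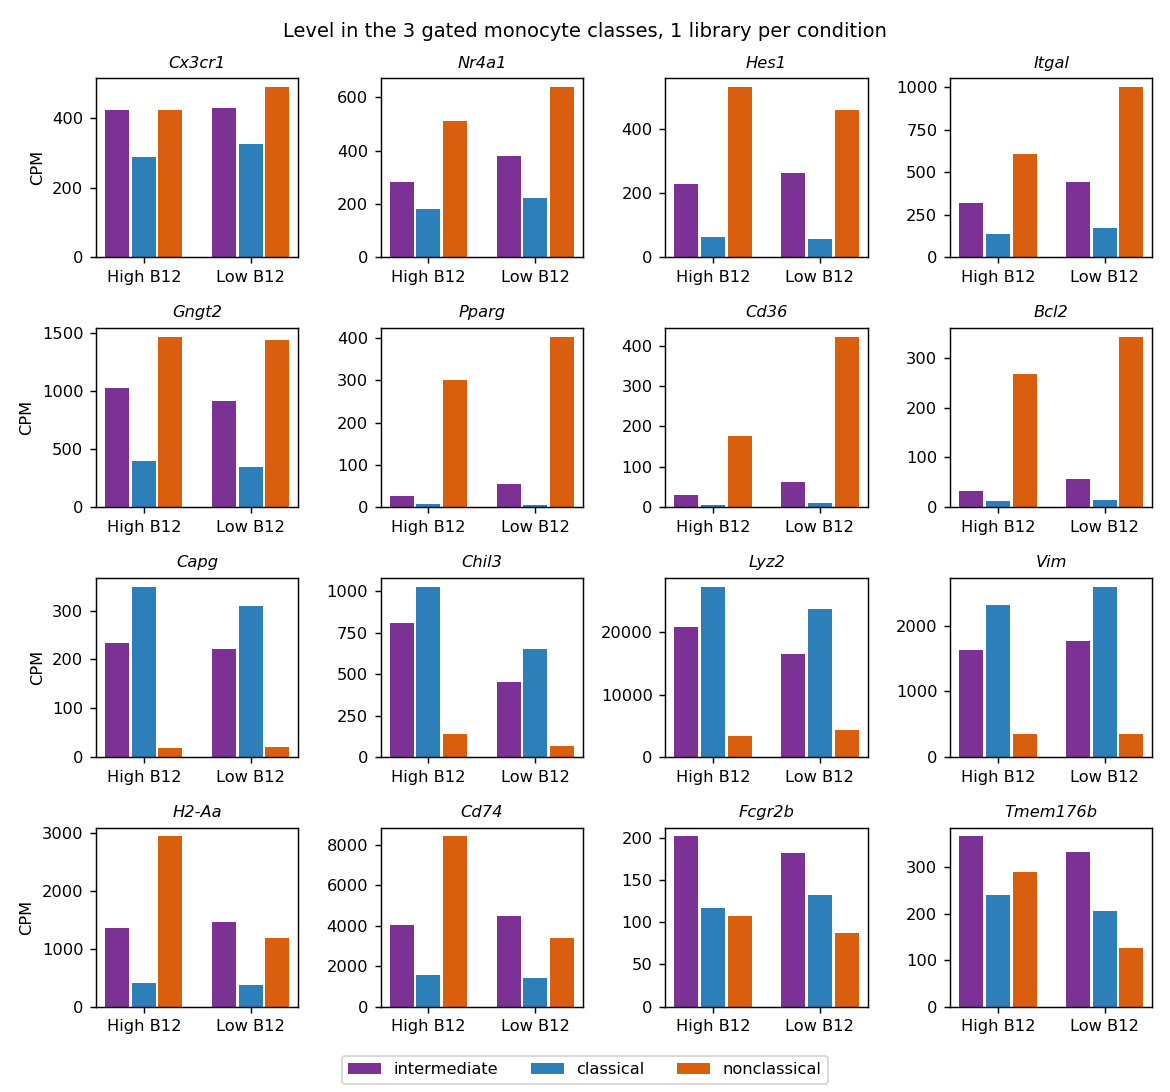
CPM of 16 genes in intermediate, classical and nonclassical cells, with the high-B12 library left of the low-B12 library. Each bar is the summed level of 1 class in 1 library, without replicates, and Hes1, Itgal and Gngt2 in members lie between the comparison classes while Fcgr2b and Tmem176b are above both, with Fcgr2b at 202 CPM in high-B12 and 182 CPM in low-B12 members.

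A few genes were above both comparison classes. Of 1452 genes at 100 CPM or more in members of both libraries, 8 (0.551%) were at least 5/4-fold above both classes in both libraries, and of 1144 genes at that level in the comparison classes 0 (0%) were that far below both. Fcgr2b, the inhibitory Fc receptor for IgG, was at 202 CPM in high-B12 and 182 CPM in low-B12 members, against 116 and 133 CPM in classical cells and 107 and 86.7 CPM in nonclassical cells. Tmem176b, a membrane channel protein, was at 366 CPM in high-B12 and 333 CPM in low-B12 members, against 240 and 205 CPM in classical cells and 288 and 125 CPM in nonclassical cells. Plac8, at 3835 CPM in high-B12 and 3044 CPM in low-B12 members, stood beside 2757 and 2098 CPM in classical cells and 1802 and 1436 CPM in nonclassical cells. Serpinb2, a plasminogen activator inhibitor, was at 160 CPM in high-B12 and 174 CPM in low-B12 members, against 93.6 and 123 CPM in classical cells and 109 and 133 CPM in nonclassical cells. H2-DMb1, which helps load peptides onto MHC class II, was at 209 CPM in high-B12 and 171 CPM in low-B12 members, against 118 and 119 CPM in classical cells and 153 and 74.7 CPM in nonclassical cells. Tnfsf13, the cytokine APRIL, was at 183 CPM in high-B12 and 163 CPM in low-B12 members, against 131 and 127 CPM in classical cells and 86.2 and 81.6 CPM in nonclassical cells. Sirpb1c was the remaining named gene, at 385 CPM in high-B12 and 357 CPM in low-B12 members, against 293 and 285 CPM in classical cells and 257 and 255 CPM in nonclassical cells.

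Members varied widely among themselves. The nonclassical share of the UMIs of the 8 subset genes had a median of 20.8% in high-B12 members, with a range of 1.53% to 90.9%, and of 25% in low-B12 members, with a range of 1.36% to 92.9%. To follow other genes along this range, members of each library were ranked by that share and cut into 3 equal parts, whose median shares were 7.21%, 20.8% and 57.5% in the high-B12 library and 8.33%, 25% and 56.2% in the low-B12 library. Of 7456 genes other than the 8 that set the order, 89 (1.19%) were at least 2-fold higher in the upper than in the lower part of both libraries, and 35 (0.469%) at least 2-fold lower.

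Genes of the classical subset outside the rule declined along the range. Vcan, which encodes the matrix protein versican, was at 124 CPM in the lower part, 42.6 CPM in the middle and 12.9 CPM in the upper part of high-B12 members, and at 69.9, 57.6 and 8.90 CPM in low-B12 members in the same order. Hp, which encodes haptoglobin, was at 760, 464 and 262 CPM from the lower to the upper part in high-B12 members and at 537, 384 and 241 CPM in low-B12 members. Chil3, a chitinase-like protein of myeloid cells, was at 1184, 668 and 483 CPM from lower to upper in high-B12 members and at 651, 422 and 253 CPM in low-B12 members. Of 32 measured classical genes outside the rule, 10 were at least 2-fold lower in the upper part and 0 higher.

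Nonclassical genes outside the rule took the opposite course, 26 of 44 measured ones being at least 2-fold higher in the upper part and 0 lower. Bcl2a1b, a survival gene of the Bcl2 family whose near-identical copies can share reads, was at 162 CPM in the upper and 2.74 CPM in the lower part of high-B12 members, and at 163 and 15.2 CPM in low-B12 members. A single cell gave 29.3% of the Bcl2a1b UMIs of high-B12 members and 8.33% of those of low-B12 members. Bcl2 was at 78.5 CPM in the upper and 10.9 CPM in the lower part of high-B12 members, and at 130 and 8.57 CPM in low-B12 members. Tcf7l2 was at 121 CPM in the upper and 24.6 CPM in the lower part of high-B12 members, and at 116 and 21.8 CPM in low-B12 members. Hes1 was at 129, 236 and 355 CPM from lower to upper in high-B12 members and at 155, 286 and 368 CPM in low-B12 members. Cx3cr1 hardly moved, at 466 CPM in the upper and 411 CPM in the lower part of high-B12 members and at 450 and 405 CPM in low-B12 members. Pparg in the upper part reached 69.1 CPM in high-B12 and 98.6 CPM in low-B12 members, below the 302 and 404 CPM of nonclassical cells.

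**Figure D3:**
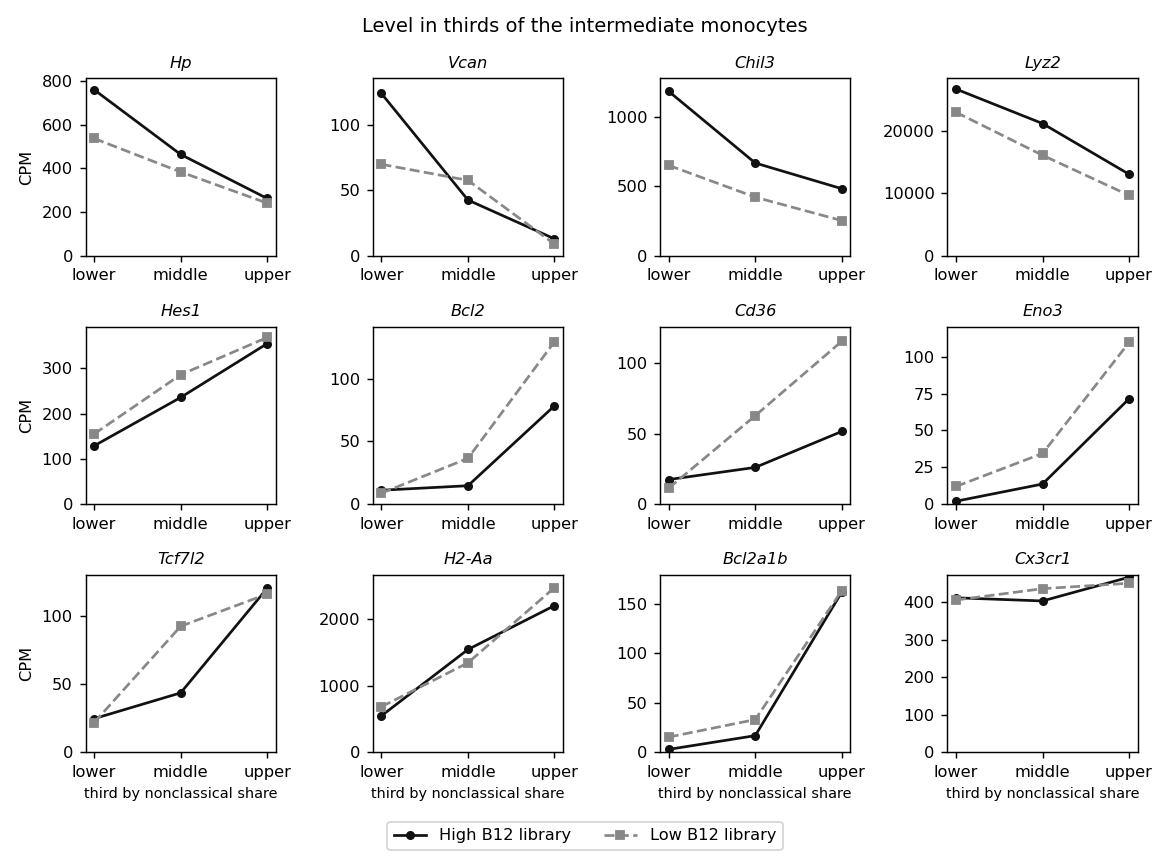
CPM of 12 genes in the lower, middle and upper parts of the intermediate monocytes, ordered within each library by the nonclassical share of subset UMIs. Solid lines are the high-B12 and dashed lines the low-B12 library, each point sums the cells of 1 part, and Hp, Vcan, Chil3 and Lyz2 decline while Hes1, Bcl2, Tcf7l2 and H2-Aa increase in both libraries.

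MHC class II genes encode the molecules that present peptides to CD4 T cells, and several of them were higher in members than in classical cells. H2-Aa was at 1364 CPM in high-B12 and 1470 CPM in low-B12 members, against 418 and 378 CPM in classical cells and 2944 and 1182 CPM in nonclassical cells. H2-Ab1 was at 1370 CPM in high-B12 and 1365 CPM in low-B12 members, against 400 and 394 CPM in classical cells. H2-Eb1 was at 1040 CPM in high-B12 and 1204 CPM in low-B12 members, against 312 and 273 CPM in classical cells. Cd74, the invariant chain that guides class II molecules, was at 4009 CPM in high-B12 and 4481 CPM in low-B12 members, against 1551 and 1426 CPM in classical cells. Ciita, the transactivator of class II genes, was at 78.3 CPM in high-B12 and 81.2 CPM in low-B12 members, against 33.5 and 33.2 CPM in classical cells. Of 14 measured genes of the list, 5 were higher than in classical cells and 0 lower, beside 0.646% and 0.0625% of all genes. The CPM of nonclassical cells lay above that of members in the high-B12 library and below it in the low-B12 library for H2-Aa, H2-Ab1, H2-Eb1, Cd74 and Ciita.

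Class II promoters share an arrangement of short boxes to which RFX and NF-Y proteins bind so that CIITA can act. The stretches before the starts of H2-Aa, H2-Eb1 and H2-DMb1 are shown because these genes had more RNA in members than in classical cells of both libraries. They are the 120 bases before each start, from RefSeq in GRCm38.p6, and lie at chr17:34287824-34287943 on the minus strand, chr17:34305747-34305866 on the plus strand and chr17:34153071-34153190 on the plus strand. Capitals mark ATTGG, the core of the Y box bound by NF-Y, or CCAAT, the same letters on the opposite strand.
H2-Aa: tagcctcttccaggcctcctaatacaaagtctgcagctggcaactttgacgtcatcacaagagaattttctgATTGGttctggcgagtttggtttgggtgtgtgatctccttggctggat
H2-Eb1: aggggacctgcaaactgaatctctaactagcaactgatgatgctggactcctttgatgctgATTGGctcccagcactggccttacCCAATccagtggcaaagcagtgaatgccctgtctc
H2-DMb1: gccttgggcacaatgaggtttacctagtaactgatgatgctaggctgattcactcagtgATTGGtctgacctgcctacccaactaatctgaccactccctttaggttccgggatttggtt
ATTGG began 48 bases before the start of H2-Aa, 59 before that of H2-Eb1 and 61 before that of H2-DMb1. Of the 11 promoters examined for 10 of the 15 genes of the list, 7 held ATTGG or CCAAT in this window. Cd74 is a gene of the list whose promoter was left out by choice. Over all 32851 promoters, from which none was left out, the share was 21.3%. The count for the list thus covers only part of it and is no like-for-like comparison with that share. A match of letters is no measured binding site.

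Class II RNA was unevenly spread over members. The 4 genes H2-Aa, H2-Ab1, H2-Eb1 and Cd74 together gave a median of 10.9 of every 10000 UMIs in high-B12 and 13.2 in low-B12 members, against 2.30 and 2.46 in classical cells and 25.6 and 5.76 in nonclassical cells. They made up at least 1% of UMIs in 23.1% of high-B12 and 26.1% of low-B12 members. The same was true of 8.16% and 6.15% of classical cells, of 36.7% and 14.1% of nonclassical cells and of 0.440% and 3.11% of NK cells, which should lack these genes. The 10% of members with the most such UMIs held 57.6% of them in the high-B12 library and 53.7% in the low-B12 library. H2-Aa increased along the range of subset RNA, at 547, 1547 and 2208 CPM from the lower to the upper part of high-B12 members and 684, 1346 and 2479 CPM in low-B12 members.

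**Figure D4:**
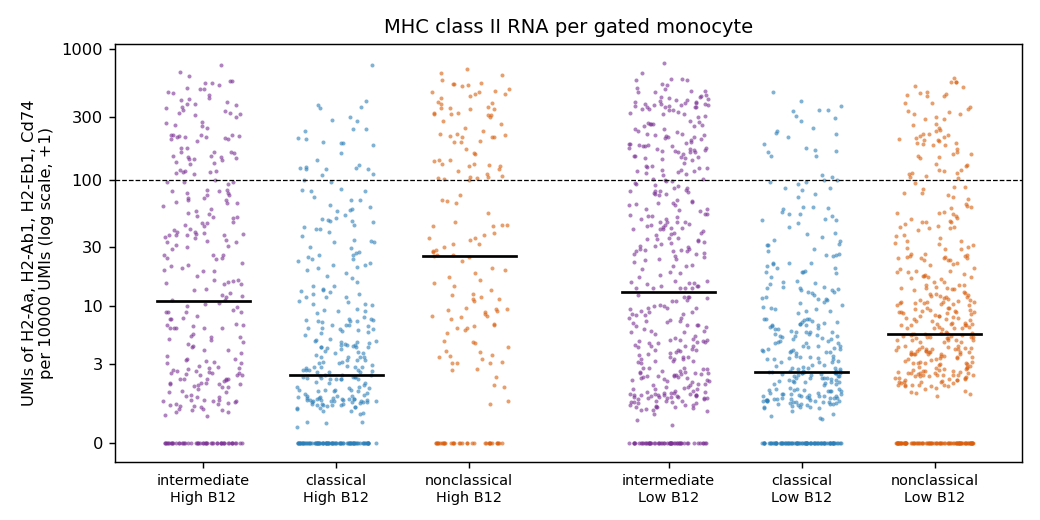
UMIs of H2-Aa, H2-Ab1, H2-Eb1 and Cd74 per 10000 UMIs (log scale after adding 1) in each gated cell, by class, with the high-B12 library left of the low-B12 library. Black lines are medians, 10.9 in high-B12 and 13.2 in low-B12 members, and the dashed line marks 1% of UMIs, with cells from 0 to well above that line in each class.

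Members were divided at 1% of UMIs from these 4 genes, a limit chosen after their values were seen, with 54 high-B12 and 81 low-B12 members between 0.5% and 2%. This gave 72 members with high class II RNA in the high-B12 library and 117 in the low-B12 library. Compared with the other members, 62 of 8364 genes (0.741%) were at least 2-fold higher and 37 (0.442%) lower in both libraries, the 4 dividing genes included. H2-DMb1 was at 540 CPM in class II-high and 112 CPM in other members of the high-B12 library, and at 426 and 80.0 CPM in low-B12 members. Ciita was at 176 CPM in class II-high and 49.4 CPM in other members of the high-B12 library, and at 232 and 27.5 CPM in low-B12 members. Tmem176b, which was above both comparison classes, was at 725 CPM in class II-high and 260 CPM in other high-B12 members and at 688 and 206 CPM in low-B12 members. Itgax, which encodes CD11c, an integrin of dendritic cells and nonclassical monocytes, was at 70.7 CPM in class II-high and 8.0 CPM in other high-B12 members, and at 85.4 and 18.9 CPM in low-B12 members. Slamf7, a receptor of the SLAM family, was at 140 CPM in class II-high and 36.5 CPM in other high-B12 members, and at 134 and 26.6 CPM in low-B12 members.

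Class II-high members lay further toward the nonclassical end of the range. Their median nonclassical share of subset UMIs was 42.9% in the high-B12 library, against 17.3% in other members. In the low-B12 library it was 40%, against 20%. The part of this position in the gene differences of the division was not tested. Class II-high members also had less RNA of several classical genes, among them Chil3 and Hp, which declined along the range. Chil3 was at 187 CPM in class II-high and 991 CPM in other high-B12 members, and at 112 and 570 CPM in low-B12 members. Hp was at 205 CPM in class II-high and 609 CPM in other high-B12 members, and at 162 and 476 CPM in low-B12 members. Of the 4 classical genes of the rule, F13a1 was at 169 CPM in class II-high and 558 CPM in other high-B12 members. In low-B12 members it was at 264 and 581 CPM. Fn1 was at 274 and 794 CPM in high-B12 members and at 375 and 1047 CPM in low-B12 members. Ly6c2, at 349 and 647 CPM in high-B12 and 192 and 514 CPM in low-B12 members, was lower too but missed the 2-fold limit. Ccr2 alone of the 4 did not follow. It was at 633 CPM in class II-high and 760 CPM in other high-B12 members, and at 708 and 653 CPM in low-B12 members. Pparg did not follow the division either, at 28.6 CPM in class II-high and 25.3 CPM in other high-B12 members and at 54.8 and 53.5 CPM in low-B12 members. Flt3, the receptor of dendritic cell precursors, was at 30.1 CPM in class II-high and 10.2 CPM in other high-B12 members, and at 48.5 and 17.3 CPM in low-B12 members. Ighm, an immunoglobulin gene of B cells, was at 141 CPM in class II-high and 129 CPM in other high-B12 members and at 125 and 133 CPM in low-B12 members. Scrublet marked 1 class II-high member in the high-B12 library and 5 in the low-B12 library. The part of dendritic cells that hold under 3 UMIs of Cd209a and Clec10a was not tested.

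Between the libraries, RNA levels of members were compared by ratio, high-B12 over low-B12, over 8364 genes with 50 or more UMIs when the libraries were added up. The size rule asked for a ratio of at least 1.5 in either direction and an interval that excludes 5/4 (4/5 for lower genes). By it 60 genes (0.717%) were higher and 151 (1.81%) lower in high-B12 members, and the median log2 ratio of all genes was -0.07. Scaling the libraries by that median gave 88 higher and 103 lower genes instead. Among classical cells 1.05% of genes were higher and 1.32% lower by the same rule, and among nonclassical cells 1.99% and 2.56%. Of genes at 100 CPM or more, 10 were higher and 28 lower after predicted, ribosomal and like genes were left out. These counts describe a pair of libraries, and differences between the mice, sorts or thawed vials behind them cannot be told apart from the labels. The median log2 ratio was 0.07 in the 20% of genes with the shortest genomic span and -0.21 in the 20% with the longest, and the part of this gradient in the calls was not tested.

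Among the genes higher in high-B12 members, Chil3 was at 808 CPM in high-B12 and 450 CPM in low-B12 members, a ratio of 1.79 (1.69 to 1.91). The ratio of Chil3 was 1.58 in classical and 2.14 in nonclassical cells, and empty droplets held 848 CPM in the high-B12 library and 356 CPM in the low-B12 library. Bst2, which encodes tetherin, an interferon-induced protein that holds back viruses, was at 207 CPM in high-B12 and 136 CPM in low-B12 members, a ratio of 1.51 (1.35 to 1.70). Ifi203, an interferon-inducible sensor of the p200 family, was at 216 CPM in high-B12 and 137 CPM in low-B12 members, a ratio of 1.58 (1.41 to 1.77). Slfn1, of the Schlafen family, had a ratio of 1.73 (1.48 to 2.03), and Ccl3, a chemokine, one of 1.65 (1.45 to 1.88). Empty droplets held 111 CPM of Slfn1 in the high-B12 library and 42.3 CPM in the low-B12 library, and 348 and 215 CPM of Ccl3. Fabp5, Pdia6 and Socs3 each had a ratio of 1.52, and in empty droplets Socs3 was at 148 CPM in the high-B12 library and 69.2 CPM in the low-B12 library. The part of free RNA in these ratios was not tested. S100a9 and S100a8, ratios 2.37 and 2.18, are limited by the rule, and in empty droplets S100a9 stood at 44009 CPM in the high-B12 library, against 16439 CPM in the low-B12 library. The direction of Slfn1 and Ccl3 turned when cells were thinned to 3000 UMIs before the rule, at log2 ratios of -0.09 and -0.68, with 104 high-B12 and 181 low-B12 members left. Thinning also ended the call of Chil3, at a log2 ratio of 0.49. Bst2, Ifi203, Pdia6 and Socs3 each lost their call under 2 or more alternatives, among them leaving out class II-high members for Bst2, weighting cells alike for Ifi203, leaving out marked doublets for Pdia6 and the top cell for Socs3. Ccl3 lost its call without class II-high members and with looser thresholds, and Fabp5 without cells holding UMIs of other lineages.

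Among the genes lower in high-B12 members, Tsc22d3, the glucocorticoid-induced leucine zipper protein, was at 125 CPM in high-B12 and 251 CPM in low-B12 members, a ratio of 0.499 (0.441 to 0.562). Its ratio was 0.526 in classical and 0.381 in nonclassical cells. Sgk1, a kinase induced by glucocorticoids, was at 90.6 CPM in high-B12 and 169 CPM in low-B12 members, a ratio of 0.538 (0.465 to 0.620). Dusp2 had 163 CPM in high-B12 and 324 CPM in low-B12 members, a ratio of 0.504 (0.453 to 0.559). Ccnd3, the G1 cyclin D3, was at 187 CPM in high-B12 and 318 CPM in low-B12 members, a ratio of 0.587 (0.530 to 0.649). Cebpa, a regulator of myeloid differentiation, was at 79.6 CPM in high-B12 and 132 CPM in low-B12 members, a ratio of 0.602 (0.514 to 0.702). Cxcl2, a chemokine that draws neutrophils, was at 99.9 CPM in high-B12 and 227 CPM in low-B12 members, a ratio of 0.441 (0.385 to 0.503), while empty droplets held 414 CPM in the high-B12 library and 227 CPM in the low-B12 library. After thinning, the log2 ratio of Cxcl2 was 0.08 and that of Nfat5, a factor of osmotic stress with a ratio of 0.605, was 0.05. Thinning also ended the call of Tsc22d3 (-0.55), Dusp2 (-0.49), Sgk1 (-0.38) and Cebpa (-0.73), with their direction kept. Sptan1, Tob2, Rgcc, Tbc1d9, Rnf19b, Gas7, Cblb and Sik1 complete the named genes, with ratios from 0.529 for Sptan1 to 0.615 for Sik1.

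**Figure D5:**
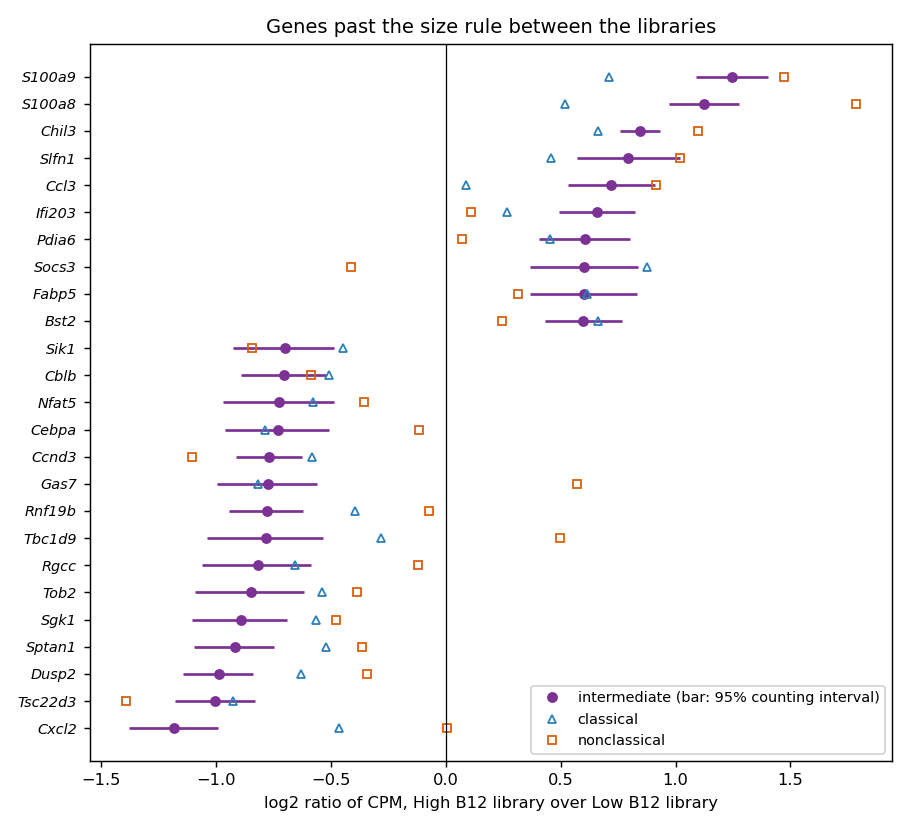
Log2 ratio of CPM, high-B12 library over low-B12 library, for the 25 named genes past the size rule in intermediate monocytes (filled circles, bars at 95% counting intervals), with classical (triangles) and nonclassical cells (squares). Points right of 0 are higher in the high-B12 library, and Chil3 and Tsc22d3 lie on the same side of 0 in all 3 classes, with Chil3 at ratios of 1.79, 1.58 and 2.14.

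Several glucocorticoid-responsive genes were lower in high-B12 members. Of 13 measured, 6 (Tsc22d3, Fkbp5, Zbtb16, Sgk1, Klf9 and Cxcr4) passed the size rule as lower and 0 as higher, beside 1.81% of all genes lower. The list's median log2 ratio was -0.63, against -0.07 over all genes, and was -0.40 in classical and -0.43 in nonclassical cells. Fkbp5, a chaperone of the glucocorticoid receptor, was at 14.1 CPM in high-B12 and 29.0 CPM in low-B12 members. Zbtb16 was at 24.7 CPM in high-B12 and 56.9 CPM in low-B12 members. Nr3c1, the receptor itself, missed the rule at 79.3 CPM in high-B12 and 112 CPM in low-B12 members, and Dusp1 at 1366 and 1692 CPM. Cebpd and Il1r2, the latter also a neutrophil gene, went the other way, as the 2 genes of the list with a ratio above 1. Cebpd had 341 of 2913586 UMIs in high-B12 and 426 of 4236468 UMIs in low-B12 members. Il1r2 was at 33.6 CPM in high-B12 and 20.8 CPM in low-B12 members.

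Some type I interferon response genes were higher in high-B12 members. Of 42 measured genes 37 had a ratio above 1, beside 40.9% of all genes, and 5 (Bst2, Ifi203, Ifi35, Oas1a and Rtp4) passed the size rule as higher and 0 as lower, beside 0.717% and 1.81% of all genes. The median log2 ratio was 0.26 in members, 0.26 in classical and 0.36 in nonclassical cells. Ifi27l2a was at 2553 CPM in high-B12 and 1756 CPM in low-B12 members, a ratio of 1.45 (1.41 to 1.5) that fell short of the size rule. Ifitm3, which blocks virus entry, was at 4462 CPM in high-B12 and 3792 CPM in low-B12 members, and Irf7, the master factor of the response, at 123 and 90.2 CPM.

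Some nonclassical genes outside the rule were lower in high-B12 members, 11 of 45 passing the size rule as lower and 0 as higher, beside 1.81% and 0.717% of all genes. They were Cd36, Pparg, Eno3, Fabp4, Abcg1, Cd274, Tgm2, Dusp5, Bcl2, Cd9 and Fyn. Pparg had a ratio of 0.487 (0.369 to 0.631) and Cd36 one of 0.496 (0.383 to 0.632). Empty droplets held 6.66 CPM of Pparg in the high-B12 library and 15.6 CPM in the low-B12 library, and 8.11 and 32.6 CPM of Cd36. The part of free RNA in these 2 ratios was not tested. The median log2 ratio of the list was -0.36 in members, against -0.07 over all genes, and it was -0.10 in classical and -0.34 in nonclassical cells. Low-B12 members had the higher median nonclassical share of subset UMIs, with 20.8% in high-B12 and 25% in low-B12 members. With the 3 parts of the range cut on both libraries together and weighted alike, the list's median was -0.32. The part of the nonclassical share in the list's median was not tested. Classical genes outside the rule had a median log2 ratio of 0.16, with 22 of 34 above a ratio of 1, Chil3 and Slfn1 higher and Saa3 lower, and 85.7% of Saa3 UMIs in high-B12 members came from 1 cell.

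The counts of other lists stand beside 0.717% of all genes higher and 1.81% lower, and their medians beside -0.07. Of 28 inflammatory and NF-kB target genes, 2 (Ccl3 and Socs3) passed as higher and 5 (Cxcl2, Cxcl9, Ccl5, Nfkbid and Tnfaip3) as lower, with a median log2 ratio of 0.02. The top cell gave 40.0% of Cxcl9 UMIs in high-B12 and 32.8% in low-B12 members. For Ccl5 it gave 22.8% in high-B12 and 37.9% in low-B12 members, so the values of Cxcl9 and Ccl5 rest on few cells. Tnfaip3, an inhibitor of NF-kB, was at 53.9 CPM in high-B12 and 94.9 CPM in low-B12 members. Of 46 transcription regulators 4 were lower (Cebpa, Nr4a3, Bach2 and Pparg) and 0 higher, with a median of -0.27. Lipid handling genes had 1 higher (Fabp5) and 4 lower (Pparg, Cd36, Fabp4 and Abcg1) of 18, with a median of -0.20. Of 11 trafficking receptors 3 were lower (Ccrl2, Cxcr4 and S1pr4) and 0 higher, with a median of -0.37. Of 10 integrins, 14 MHC class II and 21 MHC class I genes none passed in either direction. The MHC class II median was -0.08 in members, 0.02 in classical and 1.13 in nonclassical cells, and H2-Aa had a ratio of 0.928 (0.892 to 0.966) in members. Oxidative phosphorylation genes had 22 of 26 ratios above 1 at a median of 0.13, ribosomal protein genes 23 of 24 at 0.08, and none passed the rule.

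No gene tied to vitamin B12 was called between the libraries in members, and several had few UMIs. Of 11 measured B12, folate and Tet genes 0 passed the size rule, beside 0.717% of all genes higher and 1.81% lower. With shares this small, 0 of 11 does not set these genes apart from others. Their median log2 ratio was -0.06, against -0.07 over all genes. Of their ratios 3 were above 1, and 1 of these was at least 1.5. Mmaa had 30 UMIs in high-B12 and 29 in low-B12 members, and Mmut 26 and 49, too few to show that levels were alike. Mtr, methionine synthase, which uses vitamin B12, was at 24.0 CPM in high-B12 and 23.8 CPM in low-B12 members, a ratio of 1.01 (0.732 to 1.38). Tcn2, which encodes the B12 carrier transcobalamin, was at 51.8 CPM in high-B12 and 52.9 CPM in low-B12 members, a ratio of 0.981 (0.792 to 1.21). Tet2, an oxidase of 5-methylcytosine, was at 137 CPM in high-B12 and 140 CPM in low-B12 members, a ratio of 0.981 (0.862 to 1.12). In nonclassical cells Tet2 was at 275 CPM in the high-B12 library and 269 CPM in the low-B12 library, and in classical cells at 90.7 and 91.0 CPM. A ratio of Tet2 RNA does not show whether the gene is intact.

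Few members carried RNA of dividing cells. At least 3 UMIs summed over 6 cell division genes (Mki67, Top2a, Cdk1, Ccnb2, Ccna2 and Birc5) were found in 10 of 312 high-B12 members (3.21%, 1.55 to 5.82) and 3 of 448 low-B12 members (0.670%, 0.138 to 1.94). The shares were 4.37% and 2.94% in classical cells, 0.556% and 0.680% in nonclassical cells and 0.883% and 1.10% in B cells. Of 7 measured G2 and M phase genes 4 passed the size rule as higher in high-B12 members, beside 0.717% of all genes. They were Mki67, Top2a, Birc5 and Stmn1. The list has 24 genes, and those rare in low-B12 members could reach 50 UMIs only through the high-B12 library. Birc5 did so with 49 UMIs in high-B12 and 1 in low-B12 members. The count is therefore no like-for-like comparison with the share of all genes. In high-B12 members the top cell of each gene gave 33.3% of Mki67, 41.9% of Top2a, 22.4% of Birc5 and 32.5% of Stmn1 UMIs. Of 11 measured neutrophil genes outside the rule 4 also passed as higher, Retnlg, Camp, Ngp and Lcn2, beside 0.717% of all genes. Ngp, with 93 UMIs in high-B12 and 28 in low-B12 members, and Lcn2, with 85 and 19, reached 50 through the high-B12 library. The top cell gave 45.5% of Retnlg UMIs in high-B12 and 45.2% in low-B12 members. Camp was at 36.4 CPM in high-B12 and 12 CPM in low-B12 members and at 8304 and 3446 CPM in the empty droplets of those libraries, and the part of free RNA in these genes was not tested.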

How the data were processed

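Each deposited matrix holds raw UMI counts per gene and barcode, and per the file headers came from Cell Ranger 4, though version 2.1.1 stands in the submitters' processing notes. The genome build is not given in the sources used here, and the kit was a 3′ v2 kit per the labels' protocols. All 32285 genes and all barcodes were read. Cells were barcodes with 500 or more UMIs, 200 or more genes and no more than 10% mitochondrial UMIs (13 genes). Barcodes under 100 UMIs stood for empty droplets. UMIs were summed per class and library, and CPM took that sum as the total, with 0.5 UMI added for log ratios. Ratios and shares carry exact binomial (Clopper-Pearson) intervals at 95% for counting error only. Doublets were marked with Scrublet in scanpy 1.11.5 and kept, and leaving them out was an alternative. The interval procedure was tested on simulated data.

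Members and gene lists were chosen with earlier results of these data known. Named genes were the 9 genes that admit cells, up to 15 genes each way between libraries by ratio at 100 CPM or more, up to 12 each way against each comparison class at 200 CPM or more, up to 10 above or below both classes, and up to 4 per list by level. Others named for their role were chosen after their values were seen, as was leaving the 8 ordering genes out of the counts along the range. Gene spans came from GENCODE M21, in which 32158 IDs (99.6%) were found. Alternatives changed the depth minimum, the mitochondrial limit, the subset thresholds, depth, scaling, cell weights and the gene minimum. Left out from naming were mitochondrial, ribosomal protein, haemoglobin, immunoglobulin, predicted, Xist and Y-linked genes. Some genes are not reported here.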

Additional observations from a re-analysis of the deposited data

How the results depend on the processing

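With cells thinned to 3000 UMIs before the rule, which left 104 high-B12 and 181 low-B12 members, the difference in the share of all cells was -1.21 percentage points (2.22% in high-B12 and 3.44% in low-B12 cells). Genes past the size rule then numbered 14 higher and 29 lower, genes against classical cells 31 higher and 12 lower, genes against nonclassical cells 53 higher and 121 lower, and genes along the range 10 higher and 7 lower. Fewer cells and UMIs enter by construction. Of 24 named genes 4 kept their call there, 16 lost it in the same direction and 4 changed direction, Slfn1 (-0.0889), Ccl3 (-0.68), Cxcl2 (0.084) and Nfat5 (0.0527), as did the median of oxidative phosphorylation genes (-0.00283), and the cause was not tested. Without cells holding UMIs of other lineages the share differed by -6.66 points (6.19% and 12.9%), and among cells under the calprotectin limit by 0.508 points. Looser thresholds, at least 2 classical and 1 nonclassical UMI, gave 9.95 points of gated monocytes (57.0% and 47.1%), where stricter ones gave -1.31, thinning -1.07 and the thresholds as reported 1.89, 12 genes lower than in classical cells and 143 genes higher along the range. Stricter ones, at least 5 and 4, gave 12 genes lower than in classical cells, and 32 higher and 22 lower along the range. With no minimum of UMIs per gene 148 genes were higher. Scaling by the median ratio of genes, a shift of 0.07 on the log2 scale, gave 88 higher and 103 lower genes, against 60 and 151. No other alternative turned a named gene or ended more than 4 of their calls, the number under looser thresholds. Counting each list median once under each alternative, 8 moved, 1 turned and 171 did neither. Thinning alone moved 4 list medians, turned 1 and left 7. Leaving out class II-high members, or each gene's top cell, was chosen after seeing the data, and without class II-high members Tbc1d9 also lost its call (-0.60). No paired analysis was possible because each condition has 1 library. For the same reason no replicate could be left out. Genes under 50 UMIs, rare cells and genes led by 1 cell are where depth limits most.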
